A study of Homo sapiens with 8 samples.

Results

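The genes of the proteasome and of its assembly were followed in 2 ovarian cancer cell lines, A2780 and SKOV3, heated to 46 °C or kept at 37 °C. Probes were chosen by name: their symbol in the platform annotation starts with PSMA, PSMB, PSMC, PSMD, PSME, PSMF or PSMG and a number, and pseudogenes and 2 antisense genes were left out. Of 47231 probes on the array, 75 met this rule. They comprise 70 probes for 44 genes of subunits, activators and assembly factors, and 5 probes for PSMC3IP and PSME3IP1, which share only the start of the name and are described apart. Of the 44 genes, 41 passed the filter on dim probes and were tested among 14190 genes. The testis subunit PSMA8, the thymus subunit PSMB11 and the inhibitor PSMF1 did not pass it. No probe was listed for PSMA7, PSMC5, PSMD7 and PSMD13, which were not analysed here.

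The study asks what shapes the response of tumour cells to hyperthermia. There were 4 groups of 2 arrays each: A2780 cells at 46 °C, A2780 cells at 37 °C, SKOV3 cells at 46 °C and SKOV3 cells at 37 °C. Transcript levels in total RNA were read with Illumina BeadChips, on which biotin-marked cRNA binds the probes. A2780 and SKOV3 are established human lines, and no group carries a transgene or a drug. The labels do not say how long the cells were heated, when they were collected or whether replicates were separate cultures, so the p-values measure only the spread between these samples.

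The proteasome degrades proteins that carry ubiquitin chains. Its core is a barrel of alpha rings, which form the gate, around beta rings, which hold the cutting sites. A cap with a ring of ATPases and a set of non-ATPase subunits recognises, unfolds and feeds in the substrates, and dedicated chaperones build core and cap. Heat unfolds proteins and raises the load on this system, and cells that lack proteasome activity are known to raise transcription of subunit genes through NFE2L1.

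Values are normalized log2 intensities, so a difference of 1 is a factor of 2, and the level of one probe cannot be set against that of another. A gene was called where limma's moderated test gave an adjusted p under 0.05 (Benjamini-Hochberg over all 14190 genes). Of the 41 tested genes, 39 lay above background on all 8 arrays, PSMB9 on 4 arrays and PSMB8 on 0. The median SD between the arrays of a group was 0.125 for the proteasome genes and 0.137 for all genes. In bulk RNA, a smaller share of expressing cells and less RNA per cell cannot be told apart.

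The heat label was borne out by HSPA6, an HSP70 that is silent without stress. It had 13.83 and 13.81 in A2780 cells at 46 °C, against 6.56 and 6.56 at 37 °C, and 13.86 and 13.57 in SKOV3 cells at 46 °C, against 6.65 and 6.50 at 37 °C. The line labels had less support. ERBB2, whose gene copies are amplified in SKOV3, differed between SKOV3 and A2780 cells at 37 °C by 0.10 on the log2 scale (95% interval -0.18 to 0.39, adjusted p = 0.635 by limma), which does not bear out that label. Of 10 epithelial and ovarian cancer markers, 4 were above background in the SKOV3 arrays and 2 in the A2780 arrays, and PAX8, KRT7, KRT8, CDH1, MUC16 and WT1 were above it on no array. The summed linear intensity of 8 fibroblast markers was 1100 to 1220 in the SKOV3 arrays and 15600 to 16600 in the A2780 arrays. The sum of 5 tested leukocyte markers was 2180 to 2530 in A2780 cells at 46 °C, against 1620 to 1700 at 37 °C, and 2100 to 2250 in SKOV3 cells at 46 °C, against 1360 to 1400 at 37 °C, with PTPRC and CD3E above background on no array. Of the endothelial markers, VWF, CDH5, KDR and TEK were above it on no array and PECAM1 on 1. Of the erythroid markers, HBB and HBG1 were above it on no array, ALAS2 on 1 and HBA2 on 7. The HBA2 probe tested had 7.24 and 7.22 in A2780 cells at 46 °C, against 6.17 and 6.31 at 37 °C, where it was not above background, and 7.60 and 7.64 in SKOV3 cells at 46 °C, against 6.70 and 6.79 at 37 °C. The lines are therefore called by their labels, and the part of these markers in the results was not tested. The share of probes above background was 37.6% to 39.7% on 7 arrays and 43.9% on the second A2780 control array, whose upper quartile of intensity was also highest, at 317 against 181 to 243 on the others.

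With quantile normalization between arrays, heat left most proteasome transcripts near their level at 37 °C in A2780 cells. Of 41 genes, 0 were called higher, beside 2.25% of all genes, and 1, PSMB4, was called lower, beside 2.33% of all genes (4.58% in either direction). The median change of the proteasome genes was 0.03 on the log2 scale, and that of all genes was -0.01. The 95% interval of the change lay within a factor of 2 in either direction for 38 of the 41, beside 13754 of all 14190 genes. At 46 °C and 37 °C the arrays did not overlap for 16 genes (39% of them), a share below the 47% of all genes. Median scaling of the arrays instead gave 11 called genes, all lower, but 21 of the 41 lay above the median of all genes. The share of all genes called under that scaling is not given here, so the 11 are not set against it. The median change was then -0.265 for the proteasome genes and -0.28 for all genes.

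PSMB4 encodes a beta-ring subunit without a cutting site, whose tail helps join the assembling parts of the core. In A2780 cells it had 11.38 and 11.72 at 46 °C, against 12.34 and 12.62 at 37 °C. Both heated arrays lay below both control arrays. The difference was -0.93 ± 0.15 (SE, n = 2 arrays a group), a ratio of 0.525, with an adjusted p of 0.0022 by limma. Over 19 alternative settings the adjusted p ran between 0.000184 and 0.0576, and the call was lost only without the first A2780 hyperthermia array. The promoter of PSMB4, shown because this was the gene that heat lowered, covers 250 bases before to 50 bases after the start of the gene in RefSeq (GRCh38.p14, chr1:151399323-151399622, plus strand). Capitals mark a match to GAAA, any 2 bases and GAAA, a core of the interferon response element.
PSMB4: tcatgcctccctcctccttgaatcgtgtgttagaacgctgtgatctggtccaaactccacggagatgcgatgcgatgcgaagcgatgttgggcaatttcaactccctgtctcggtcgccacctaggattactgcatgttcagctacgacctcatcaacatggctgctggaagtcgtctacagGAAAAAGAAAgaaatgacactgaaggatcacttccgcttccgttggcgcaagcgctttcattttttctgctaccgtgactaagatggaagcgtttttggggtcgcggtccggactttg

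With quantile normalization, the alpha ring of A2780 cells lay on one side of 0 by the brightest probe of each gene. Its 6 tested genes had positive changes of 0.04 to 0.62, none of them called. For 4 of the 6 (66.7%) the heated arrays did not overlap the control arrays, beside 47% of all genes. Other probes gave 0.25 and -0.11 for PSMA1, -0.01 for PSMA6, 0.11 for PSMA3 and 0.43 for PSMA4. With median scaling instead, PSMA1, PSMA3, PSMA4 and PSMA5 had negative changes (-0.12 to -0.07), where the median of all genes was -0.28. PSMA2 and PSMA6 stayed positive. PSMA2 had 9.83 and 10.01 at 46 °C, against 9.63 and 8.98 at 37 °C, a difference of 0.62 ± 0.22 with an adjusted p of 0.149. The beta ring lay mostly on the other side, with negative changes for 6 of 7 genes, and PSMB4 was the only one called. PSMB2 had 11.91 and 11.76 at 46 °C, against 12.03 and 12.55 at 37 °C, with an adjusted p of 0.154. PSMB5, which holds the chymotrypsin-like site and is the main target of bortezomib, had 12.89 and 12.90 at 46 °C, against 13.06 and 13.61 at 37 °C, a difference of -0.44 with an adjusted p of 0.164. PSMB6, which holds the caspase-like site, changed by -0.05, and PSMB7, which holds the trypsin-like site, changed by -0.12, neither called. Each of these p-values came from limma.

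In the cap of A2780 cells, the 5 ATPases spanned -0.04 for PSMC4 to 0.20 for PSMC2, and the 9 non-ATPases spanned -0.45 to 0.34. PSMD4, a receptor for ubiquitin chains, had 11.59 and 11.98 at 46 °C, against 11.95 and 12.52 at 37 °C, and its 3 probes gave changes between -0.55 and -0.45, with an adjusted p of 0.198 for the brightest probe. PSMD1, a scaffold of the base, had 10.58 and 10.68 at 46 °C, against 10.40 and 10.18 at 37 °C, with an adjusted p of 0.188. Both heated arrays lay above both control arrays for PSMD1, while those of PSMD4 overlapped by 1 array. Among the 7 assembly factors the lowest change was that of PSMG3, a chaperone of the alpha ring, with 9.11 and 9.37 at 46 °C, against 9.29 and 10.28 at 37 °C (adjusted p = 0.236). The other assembly factors of A2780 lay between -0.18 and 0.17, and the 4 activators between -0.01 and 0.05.

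Several of these values turned on the control arrays. The second A2780 control array was higher than the first in PSMB5, PSMG3, PSMD4 and PSMB2 and lower in PSMA2, in each case by more than 0.5. For PSMB5, PSMG3, PSMD4, PSMB2 and PSMB4 the mean heated value lay further below the second control array than below the first. For PSMA2 it lay further above the second than above the first. The drop of PSMB4 also depended on the heated arrays, with 11.38 on the first and 11.72 on the second.

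**Figure D1:**
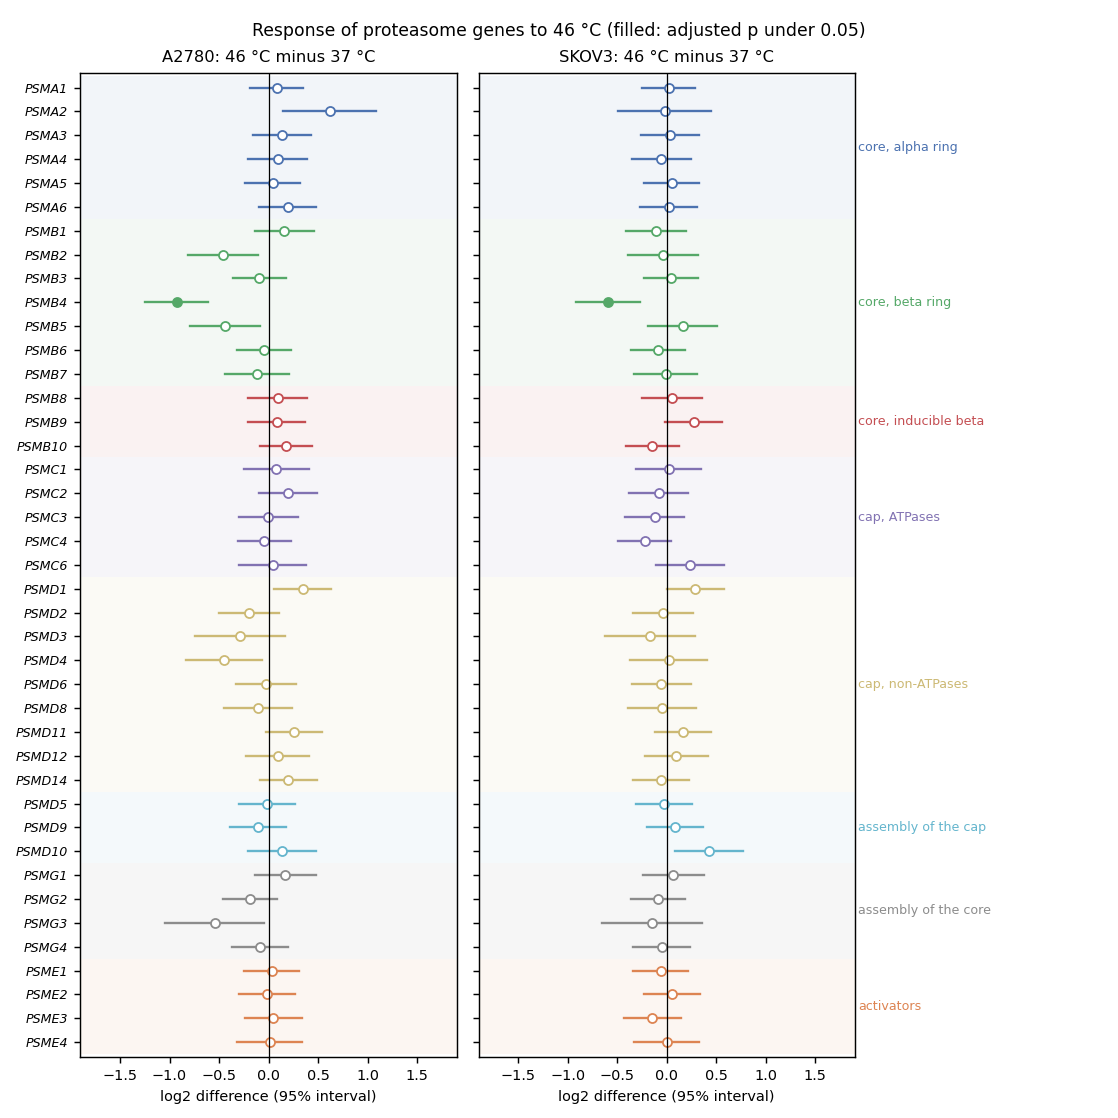
Change of each of the 41 tested proteasome genes at 46 °C minus 37 °C (log2 difference on the horizontal axis) in A2780 (left) and SKOV3 (right) cells; points are limma estimates from 2 arrays a group, lines are 95% intervals, filled points have an adjusted p under 0.05, and shading marks the role classes. PSMB4 is the only filled point in either panel, at -0.93 in A2780 and -0.59 in SKOV3.

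With quantile normalization, most proteasome transcripts stayed near their level at 37 °C in SKOV3 cells as well. Again 0 genes were called higher, beside 1.55% of all genes, and 1, PSMB4, lower, beside 1.68% of all genes (3.23% in either direction). The median change was -0.02 both for the proteasome genes and for all genes. The 95% intervals of all 41 proteasome genes lay within a factor of 2, beside those of 13885 of all 14190 genes. The heated and control arrays did not overlap for 14 genes (34.1%), against 45.5% of all genes.

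PSMB4 had 12.07 and 12.05 in SKOV3 cells at 46 °C, against 12.58 and 12.72 at 37 °C. Both heated arrays lay below both control arrays here too. The difference was -0.59 ± 0.15, a ratio of 0.665, with an adjusted p of 0.0493 by limma, at the edge of the threshold. It was called in 7 of 19 alternative settings, with adjusted p between 0.0194 and 0.58. The call was lost without either A2780 hyperthermia array and without any one of the 4 SKOV3 arrays.

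The alpha ring of SKOV3 cells spanned -0.05 to 0.05, with 4 positive and 2 negative changes. PSMB5 had 12.29 and 12.18 at 46 °C, against 12.10 and 12.04 at 37 °C, a difference of 0.16 with an adjusted p of 0.718. The highest uncalled change was that of PSMD10, gankyrin, which helps assemble the ATPase ring. It had 10.46 and 10.87 at 46 °C, against 10.35 and 10.13 at 37 °C, and its 3 probes gave changes of 0.34 to 0.43, with an adjusted p of 0.209 for the brightest probe. PSMD1 had 11.15 and 11.28 at 46 °C, against 10.98 and 10.87 at 37 °C, with heated arrays above control arrays as in A2780 (adjusted p = 0.325). At the low end PSMC4, an ATPase, changed by -0.22, and PSME3, the nuclear activator, by -0.15, neither called.

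Over both lines, in a model with line and temperature as terms, PSMB4 was the only proteasome gene called, where 7.04% of all genes were called. Its change was -0.76 ± 0.11 with an adjusted p of 0.000807, and it was called in 18 of 18 alternatives. PSMD1 came next with 0.32 ± 0.09 and an adjusted p of 0.0564. It was called in 2 of 18 alternatives, with the authors' own log2 values (adjusted p = 0.0293) and with floored signals (0.0288), both by limma. Over the 18 its change ran from 0.07 to 0.36, with an adjusted p of up to 0.807 by limma. Under median scaling of the arrays, the change of PSMD1 was -0.09 in A2780 and 0.32 in SKOV3. The test of the difference between the responses called 0 proteasome genes by limma, where 0.12% of all genes were called. At an unadjusted p under 0.05 it gave 1 gene, beside 8.56% of all genes. That gene was PSMB5, whose response was 0.60 higher in SKOV3 than in A2780 (adjusted p = 0.515). For PSMB4 the responses differed by 0.34 ± 0.21 (adjusted p = 0.674).

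**Figure D2:**
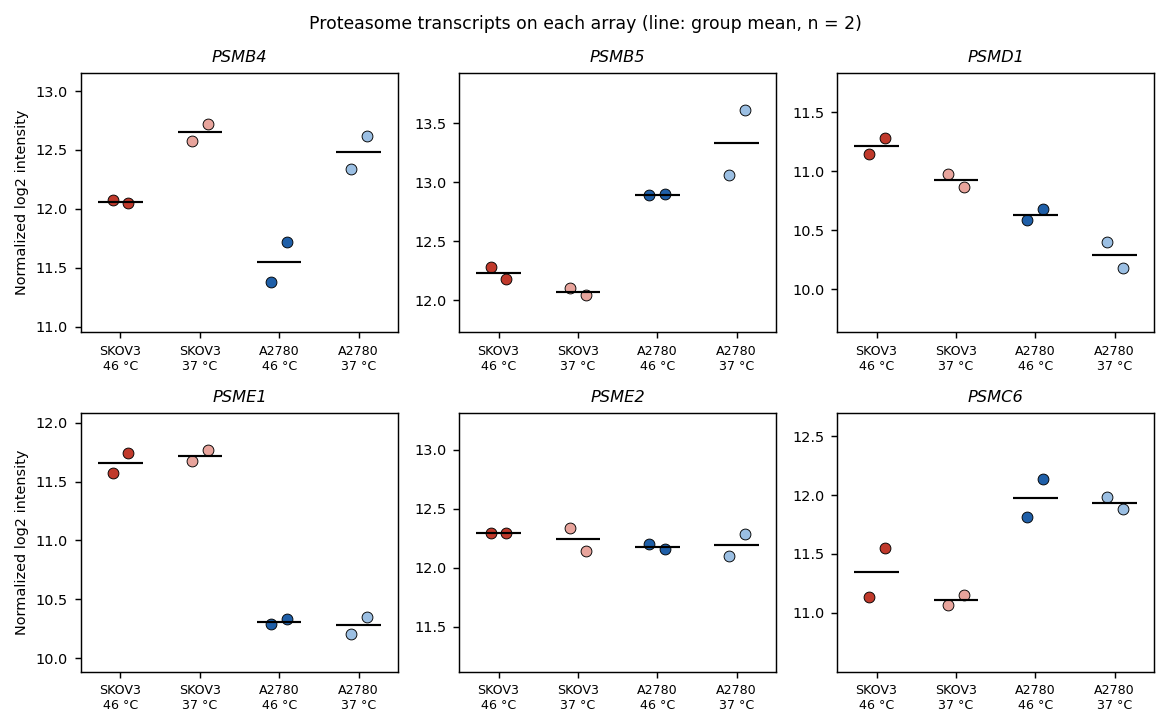
Normalized log2 intensity of PSMB4, PSMB5, PSMD1, PSME1, PSME2 and PSMC6 on each of the 8 arrays (points) with the group mean (line, n = 2), for SKOV3 at 46 °C and 37 °C and A2780 at 46 °C and 37 °C, left to right; the vertical axes differ between genes. PSMB4 is lower in heated arrays of both lines, and PSME1 separates the lines at both temperatures while PSME2 does not.

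Between the lines more genes were called than between the temperatures, among the proteasome genes and among all genes. At 37 °C, 12 of the 41 genes were called between SKOV3 and A2780, 8 higher and 4 lower in SKOV3, beside 15.5% higher and 13.7% lower of all genes. That is 29.3% of them, the same share as among all genes (29.3%). The arrays of the lines did not overlap for 30 genes (73.2%), against 63.1% of all genes. At 46 °C, 9 genes were called, 5 higher and 4 lower in SKOV3, beside 12.3% higher and 11.7% lower of all genes (24% in either direction). The arrays did not overlap for 26 genes (63.4%), against 58.4% of all genes.

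Among the activators, PSME1 differed most of all 41 genes. It encodes a subunit of PA28, the interferon-inducible ring that opens the core and shapes peptides for antigen presentation. PSME1 had 11.68 and 11.76 in SKOV3 cells at 37 °C, against 10.21 and 10.35 in A2780 cells. After heating it had 11.57 and 11.74 in SKOV3 cells, against 10.29 and 10.34 in A2780 cells. All 4 SKOV3 arrays lay above all 4 A2780 arrays. The difference was 1.44 ± 0.13 at 37 °C (adjusted p = 1.29e-06), a ratio of 2.71, and 1.35 ± 0.13 at 46 °C (adjusted p = 2.79e-06), and it was called in 19 of 19 alternatives at both temperatures. Its size at 37 °C ran from 0.77 to 1.54 over these alternatives, and was 0.89 under median scaling of the arrays. A second PSME1 probe lay near the floor, with a mean of 6.47 and 4 of 8 arrays above background, so it says little about the size of this difference. The partner subunit PSME2 had 12.33 and 12.15 in SKOV3 cells at 37 °C, against 12.10 and 12.29 in A2780 cells, and these overlapped (0.05, adjusted p = 0.846).

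PSME1 and PSME2 form 1 ring, and their promoters are printed because their transcripts parted between the lines. That of PSME1 is at chr14:24135944-24136243 on the plus strand and that of PSME2 at chr14:24146561-24146860 on the minus strand (RefSeq, GRCh38.p14), each written in the direction of the gene. Capitals mark matches to TGACNNNGC, the core of the antioxidant response element, and to the interferon element core named above, on either strand.
PSME1: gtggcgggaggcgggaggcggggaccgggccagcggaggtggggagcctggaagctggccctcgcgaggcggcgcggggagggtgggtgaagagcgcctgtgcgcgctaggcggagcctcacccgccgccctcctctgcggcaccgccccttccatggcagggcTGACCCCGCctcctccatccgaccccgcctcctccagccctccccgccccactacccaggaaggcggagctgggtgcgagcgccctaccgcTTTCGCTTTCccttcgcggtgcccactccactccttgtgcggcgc
PSME2: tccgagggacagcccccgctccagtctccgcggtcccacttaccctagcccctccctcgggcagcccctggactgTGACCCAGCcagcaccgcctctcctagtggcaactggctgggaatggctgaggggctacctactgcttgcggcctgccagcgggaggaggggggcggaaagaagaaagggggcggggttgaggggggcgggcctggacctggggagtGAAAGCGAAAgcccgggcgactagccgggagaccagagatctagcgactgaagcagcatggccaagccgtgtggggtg
Each promoter holds 1 match of each kind.

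In the core, PSMB5 differed most at 37 °C, and PSMA2 at 46 °C. PSMB5 had 12.10 and 12.04 in SKOV3 cells at 37 °C, against 13.06 and 13.61 in A2780 cells, a difference of -1.26 ± 0.16 with an adjusted p of 4.59e-05 by limma. At 46 °C the values were 12.29 and 12.18 in SKOV3 cells, against 12.89 and 12.90 in A2780 cells, a difference of -0.66 (adjusted p = 0.00814). The SKOV3 arrays lay below the A2780 arrays at both temperatures. The call at 37 °C held in 19 of 19 alternatives. That at 46 °C was lost without either A2780 hyperthermia array, with an adjusted p of up to 0.0594. The promoter of PSMB5, the catalytic gene with the widest gap between the lines, is at chr14:23035171-23035470 on the minus strand (RefSeq, GRCh38.p14), and capitals mark a CCAAT box.
PSMB5: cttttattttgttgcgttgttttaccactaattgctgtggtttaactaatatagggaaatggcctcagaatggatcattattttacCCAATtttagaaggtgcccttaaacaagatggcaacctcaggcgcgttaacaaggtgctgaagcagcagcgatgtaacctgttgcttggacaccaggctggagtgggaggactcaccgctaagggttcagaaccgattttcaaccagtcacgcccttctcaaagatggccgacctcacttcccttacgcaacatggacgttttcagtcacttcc

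The other catalytic subunits of the standard core did not separate the lines in this way. PSMB6 differed by 0.15 and PSMB7 by 0.02 at 37 °C, neither called. In the alpha ring, PSMA4 had 13.27 and 13.13 in SKOV3 cells at 37 °C, against 12.79 and 12.60 in A2780 cells (0.50, adjusted p = 0.0144). PSMA3 had 12.67 and 12.48 in SKOV3 cells at 37 °C, against 12.22 and 12.01 in A2780 cells (0.46, adjusted p = 0.0201). The arrays of the lines did not overlap for either gene. Both calls were lost without the second A2780 control array, without the first SKOV3 control array and under median scaling of the arrays. At 37 °C a second probe gave 0.63 for PSMA4, which was called (adjusted p = 0.0355 over all probes by limma). The second probe of PSMA3 gave 0.34 and was not called (adjusted p = 0.124). At 46 °C, PSMA2 had 8.93 and 9.45 in SKOV3 cells, against 9.83 and 10.01 in A2780 cells (-0.73, adjusted p = 0.0263), and it was called lower. PSMB4 had 12.07 and 12.05 in SKOV3 cells at 46 °C, against 11.38 and 11.72 in A2780 cells, and was called higher there (0.51, adjusted p = 0.023), while at 37 °C it differed by 0.17 and was not called. The PSMA2 call was lost without either A2780 hyperthermia array or the first SKOV3 hyperthermia array, and that of PSMB4 without the first A2780 hyperthermia array or either SKOV3 hyperthermia array.

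The inducible beta subunits, which replace the standard cutting subunits after interferon, were weakly detected apart from PSMB10. PSMB8 was below background on every array, so no fold is given. The brighter PSMB9 probe had 6.71 and 6.64 in SKOV3 cells at 46 °C, against 6.35 and 6.46 at 37 °C. In A2780 cells it had 6.22 and 6.46 at 46 °C, against 6.32 and 6.19 at 37 °C, where it was not above background. The highest values were those of the heated SKOV3 cells, and the responses of PSMB9 were not called (adjusted p = 0.363 in SKOV3 by limma). Between the lines this probe was not called at either temperature. The second PSMB9 probe averaged 6.67 in SKOV3 cells at 37 °C and was not above background in A2780 cells, at least 1.23-fold higher in SKOV3 (adjusted p = 0.0056 over all probes by limma). At 46 °C it averaged 6.86 in SKOV3 cells and was again not above background in A2780 cells, at least 1.32-fold higher in SKOV3 (adjusted p = 0.000561). These bounds set the SKOV3 mean against the lowest normalized value above background on the A2780 arrays, and the probes of PSMB9 disagree on the call. PSMB10 had 11.24 and 11.35 in SKOV3 cells at 37 °C, against 11.03 and 11.02 in A2780 cells, with no overlap, and the difference of 0.26 was not called (adjusted p = 0.132).

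In the cap, 5 of 14 genes were called higher and 1 lower in SKOV3 at 37 °C, beside 15.5% higher and 13.7% lower of all genes. PSMD1 had 10.98 and 10.87 in SKOV3 cells at 37 °C, against 10.40 and 10.18 in A2780 cells (0.64 ± 0.13, adjusted p = 0.00248), and 11.15 and 11.28 at 46 °C, against 10.58 and 10.68 (0.58, adjusted p = 0.00531). PSMD2, the other large scaffold of the base, had 11.93 and 11.96 in SKOV3 cells at 37 °C, against 11.31 and 11.63 in A2780 cells (0.48, adjusted p = 0.0209). After heating PSMD2 had 12.01 and 11.80 in SKOV3 cells, against 11.29 and 11.26 in A2780 cells (0.63, adjusted p = 0.00468). The SKOV3 arrays lay above the A2780 arrays for both scaffolds at both temperatures. PSMD6, a subunit of the lid, had 13.06 and 12.83 in SKOV3 cells at 37 °C, against 12.58 and 12.37 in A2780 cells (0.47, adjusted p = 0.0208), and was also called at 46 °C (0.44, adjusted p = 0.0336). Its second probe, above background on 8 arrays, gave 0.20 at 37 °C and 0.21 at 46 °C. That probe was called at neither temperature (adjusted p = 0.38 and 0.375 over all probes by limma). PSMC2, an ATPase, had 12.36 and 12.34 in SKOV3 cells at 37 °C, against 11.98 and 11.63 in A2780 cells (0.54, adjusted p = 0.00886), and PSMD11, a lid subunit known to set proteasome levels in stem cells, had 9.28 and 9.29, against 9.01 and 8.81 (0.37, adjusted p = 0.0472). These 2 were not called at 46 °C. PSMC1, an ATPase, was called at neither temperature by its brightest probe (0.39 and 0.33). Its second probe, above background on 8 arrays, was called higher in SKOV3 at both. That probe gave 0.59 at 37 °C and 0.48 at 46 °C (adjusted p = 0.00922 and 0.0367 over all probes by limma).

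PSMC6, another ATPase, was the only one of the 14 cap genes called lower in SKOV3, at both temperatures. It had 11.07 and 11.15 in SKOV3 cells at 37 °C, against 11.98 and 11.88 in A2780 cells, a difference of -0.82 ± 0.16 (adjusted p = 0.00136). At 46 °C it had 11.14 and 11.55 in SKOV3 cells, against 11.81 and 12.13 in A2780 cells (-0.63, adjusted p = 0.00981). The lines did not overlap at either temperature. Its second probe gave -0.71 at 37 °C and -0.75 at 46 °C, and the call at 37 °C held in 19 of 19 alternatives.

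The calls of PSMD1, PSMD2, PSMD6, PSMC2 and PSMD11 at 37 °C were lost under median scaling and without normalization between arrays. Under median scaling PSMD1 differed by 0.12. At 46 °C the call of PSMD6 was lost under both, and those of PSMD1 and PSMD2 without normalization. The calls in the cap also differed in how they stood up to leaving out single arrays. At 37 °C that of PSMD1 held in each such fit. That of PSMC2 was lost without the second A2780 control array or either SKOV3 control array, and that of PSMD2 without the first A2780 control array or either SKOV3 control array. That of PSMD6 was lost without the second A2780 or the first SKOV3 control array. That of PSMD11 was lost in 12 of 19 alternatives, among them the fits without the second A2780 control array, either A2780 hyperthermia array or either SKOV3 control array. At 46 °C the call of PSMD2 held in each of these fits, that of PSMD1 was lost without the first A2780 hyperthermia array, that of PSMC6 without the second A2780 or first SKOV3 hyperthermia array, and that of PSMD6 without any 1 of the 4 heated arrays.

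The assembly factors were the class with a negative median in SKOV3 minus A2780. None was called higher at 37 °C, beside 15.5% of all genes, and 2 of 7 (28.6%) were called in either direction, both lower, beside 29.3% of all genes in either direction and 13.7% lower. PSMD9, a chaperone of the ATPase ring, had 6.85 and 6.97 in SKOV3 cells at 37 °C, against 7.61 and 7.42 in A2780 cells (-0.61 ± 0.13, adjusted p = 0.00311 by limma). At 46 °C it had 7.07 and 6.92 in SKOV3 cells, against 7.44 and 7.37 in A2780 cells (-0.41, adjusted p = 0.0346). The lines did not overlap at either temperature. The call at 37 °C held in 19 of 19 alternatives, and that at 46 °C in 10, being lost without either A2780 hyperthermia array, either SKOV3 control array or the second SKOV3 hyperthermia array. PSMG3 had 9.10 and 9.07 in SKOV3 cells at 37 °C, against 9.29 and 10.28 in A2780 cells (-0.70 ± 0.23, adjusted p = 0.0371). The second A2780 control array stood well above the other 3 of these arrays, and the call held in 11 of 19 alternatives (adjusted p up to 0.442). It was lost without that array, without the first A2780 hyperthermia array, without either SKOV3 control array, with the authors' log2 values, with floored signals and with only the 37 °C arrays in the fit, and its adjusted p was 0.05 without the second A2780 hyperthermia array. PSMG1 and PSMG2, which form a chaperone pair of the alpha ring, differed by 0.33 and -0.28 at 37 °C, neither called.

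**Figure D3:**
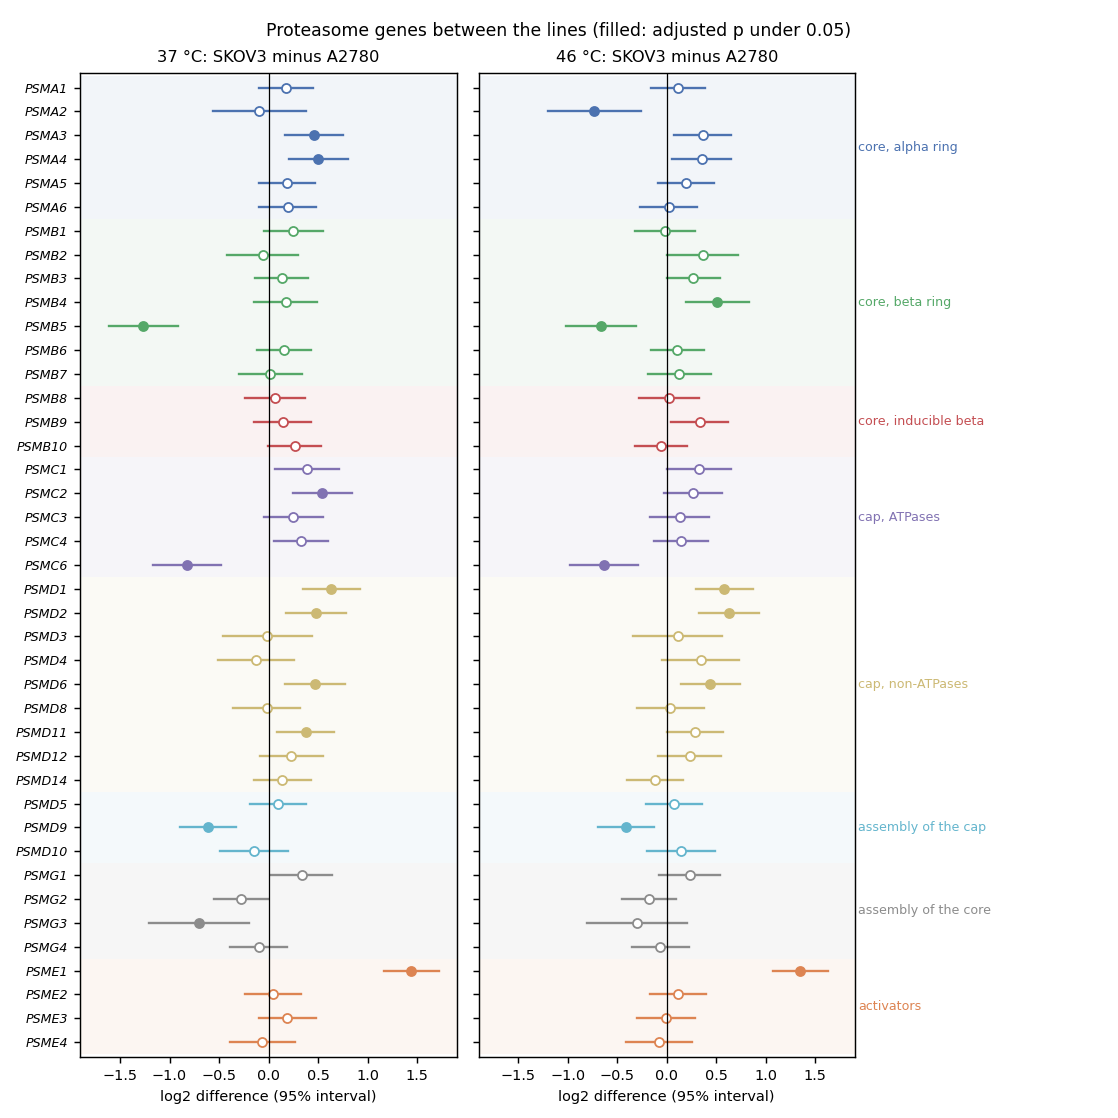
SKOV3 minus A2780 difference of each of the 41 tested proteasome genes (log2 on the horizontal axis) at 37 °C (left) and 46 °C (right); points are limma estimates from 2 arrays a group, lines are 95% intervals, filled points have an adjusted p under 0.05, and shading marks the role classes. PSME1 lies farthest to the right, at 1.44 and 1.35, and PSMB5 farthest to the left at 37 °C, at -1.26.

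Read by class, the median difference of SKOV3 minus A2780 at 37 °C was 0.16 for the 16 core genes, 0.29 for the 14 cap genes and -0.14 for the 7 assembly factors, beside 0.01 for all genes. At 46 °C the medians were 0.12, 0.25 and -0.06 in that order of classes, beside 0.00473 for all genes. Relative to the median of all genes, that of the assembly factors at 37 °C stayed negative in 19 alternatives (-0.40 to -0.14) and that of the cap positive (0.02 to 0.34), while that of the core ran from -0.03 to 0.18. The responses to heat gave smaller class medians. In A2780 they were 0.08 for the core, 0.02 for the cap and -0.09 for the assembly factors, and in SKOV3 they were 0.0039, -0.04 and -0.03.

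The scaling between arrays decided the sign of many of these differences. With median scaling in place of quantile normalization, the median of all genes moved to -0.28 for 46 °C minus 37 °C in A2780 and to -0.23 for SKOV3 minus A2780 at 37 °C. In A2780, 11 proteasome genes were then called, all lower, and 36 of the 41 changes were negative, but 21 of the 41 lay above the median of all genes. Between the lines at 37 °C, 1 gene, PSME1, was then called higher and 12 lower in SKOV3, in place of 8 and 4, and 16 of 41 lay above the median of all genes. There 34 of the 41 differences were negative, against 13 under quantile normalization. Of the 8 genes called higher under quantile normalization, PSMA3, PSMD2 and PSMD11 turned negative. At 46 °C median scaling gave 3 higher and 3 lower, in place of 5 and 4. Shares of all genes called under median scaling are not given here, so these counts are not set against them. PSME1 kept its positive sign, and PSMB5, PSMC6 and PSMD9 their negative sign, under each scaling at both temperatures.

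**Figure D4:**
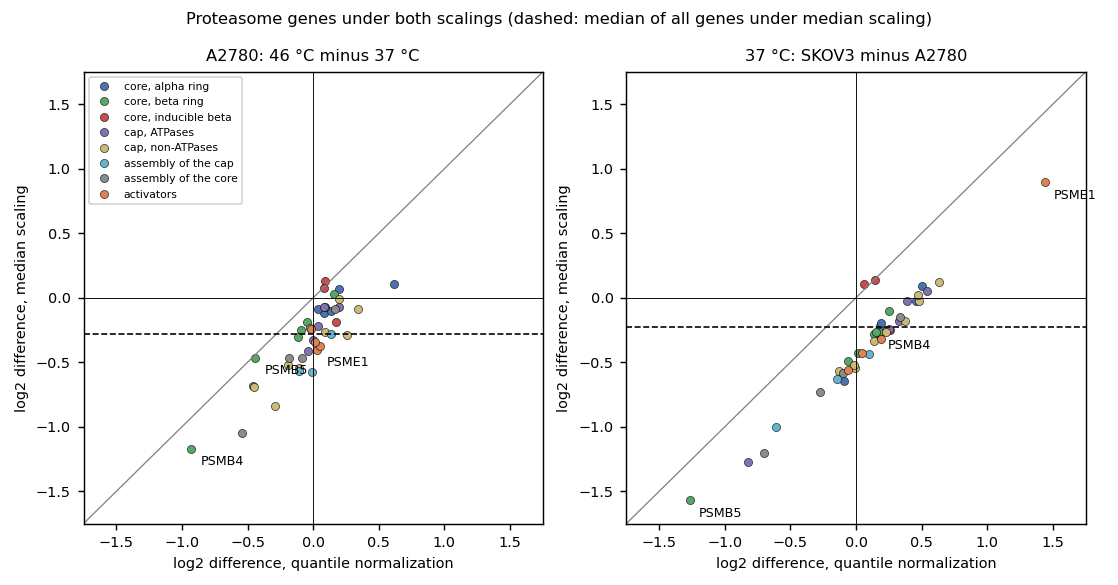
Each point is 1 of the 41 proteasome genes, with its log2 difference under quantile normalization on the horizontal axis and under median scaling on the vertical axis, for 46 °C minus 37 °C in A2780 (left) and SKOV3 minus A2780 at 37 °C (right). The dashed line is the median of all genes under median scaling, at -0.28 and -0.23, and most points lie below the diagonal line of equal values.

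The members did not move as 1 block across arrays. Over the 820 pairs of the 41 genes, the median Pearson correlation across the 8 arrays was 0.15 and the lowest -0.99, as a description of arrays that share lines and scaling. The mean centred profile of the members spanned 0.03 to 0.07 on the SKOV3 arrays and -0.09 to -0.04 on the A2780 arrays. The genes outside the set most like this profile over the 8 arrays were ELL3 (r = 0.994), LURAP1 (0.992), SLC41A2 (0.988), PHOSPHO2 (0.987) and PUM3 (0.986).

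Genes whose products work with the proteasome were taken as a list of 32, of which 30 were tested. Of these 30, 2 were called higher and 2 lower in A2780, beside 2.25% and 2.33% of all genes. In SKOV3, 2 were called higher and 0 lower, beside 1.55% and 1.68% of all genes. ZFAND2A, a heat- and arsenite-inducible protein that binds the cap, had 10.68 and 10.50 in A2780 cells at 46 °C, against 9.26 and 9.17 at 37 °C (1.38 ± 0.14, adjusted p = 2.1e-05). In SKOV3 cells it had 11.06 and 10.82 at 46 °C, against 9.55 and 9.52 at 37 °C (1.41, adjusted p = 2.69e-05). Heated arrays lay above control arrays in both lines, and the call held in 19 of 19 alternatives in each. MAFF, a small MAF protein that pairs with NFE2L1 and its relatives, was called higher in A2780 (1.19, adjusted p = 0.000864) and in SKOV3 (0.71, adjusted p = 0.0398). The SKOV3 call was lost in 9 of 19 alternatives, with adjusted p up to 0.262, among them the fits without either A2780 hyperthermia array, either SKOV3 control array or the first SKOV3 hyperthermia array.

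USP14, a deubiquitinase of the cap, had 9.43 and 9.33 in A2780 cells at 46 °C, against 10.01 and 10.09 at 37 °C (-0.68 ± 0.12, adjusted p = 0.00586). It had 9.18 and 9.10 in SKOV3 cells at 46 °C, against 9.64 and 9.57 at 37 °C (-0.46, adjusted p = 0.0664). The heated arrays lay below the control arrays in both lines, and over both lines USP14 was called lower (-0.57, adjusted p = 0.00136). The A2780 call was lost without the second A2780 hyperthermia array (adjusted p = 0.0822). NFE2L1, the factor that drives subunit genes when proteasome activity is short, had 8.58 and 8.84 in A2780 cells at 46 °C, against 9.17 and 9.40 at 37 °C (-0.58, adjusted p = 0.0331). In SKOV3 cells it had 8.80 and 8.83 at 46 °C, against 8.80 and 8.96 at 37 °C, and did not separate. The NFE2L1 call in A2780 was lost without the second A2780 control array, either A2780 hyperthermia array or either SKOV3 control array (adjusted p up to 0.315), and the responses of the lines were not shown to differ (0.51, adjusted p = 0.516). POMP, the maturation factor of the core, changed by 0.09 in A2780 and 0.04 in SKOV3, neither called.

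Genes of class I antigen processing, which use the peptides of the proteasome, had 0 of 7 called with heat in either line by limma, and 2 in A2780 and 1 in SKOV3 at an unadjusted p under 0.05. The share called among all genes at the adjusted threshold was 4.58% for A2780 and 3.23% for SKOV3. At the unadjusted threshold, 2564 of all 14190 genes passed in A2780 and 2134 in SKOV3. Of the same 7 genes, 4 were called higher and 0 lower in SKOV3 at each temperature, beside 15.5% higher and 13.7% lower of all genes at 37 °C and 12.3% and 11.7% at 46 °C. TAP1, a subunit of the peptide transporter, had 9.24 and 9.40 in SKOV3 cells at 37 °C, against 6.59 and 6.74 in A2780 cells (2.65, adjusted p = 4.2e-09). IRF1, an interferon response factor, had 8.23 and 8.38 in SKOV3 cells at 37 °C, against 6.51 and 6.32 in A2780 cells, where 1 of 2 arrays was above background (1.89, adjusted p = 3.38e-07). The lines did not overlap for either gene. TAPBP, which bridges TAP and class I, was called higher at both temperatures, and TAP2 at 46 °C. The TAPBP call at 37 °C was lost with median scaling and with no normalization between arrays (adjusted p = 0.408 and 0.778). At 46 °C it was lost without the second A2780 or the first SKOV3 hyperthermia array, and that of TAP2 held in 12 of 19 alternatives, being lost among others without either A2780 or the first SKOV3 hyperthermia array.

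The genes that match by name only were PSMC3IP, a partner in meiotic recombination, and PSME3IP1, which binds PSME3. PSMC3IP had 8.39 and 8.49 in SKOV3 cells at 37 °C, against 8.87 and 8.83 in A2780 cells, and was called lower (-0.42, adjusted p = 0.0253). Other PSMC3IP probes above background on 8 arrays gave -0.57 and -0.43 there. They were not called (adjusted p = 0.0572 and 0.101 over all probes by limma). PSME3IP1 was called in none of the 6 comparisons.

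The promoters of 39 of the 44 genes were found in the RefSeq table (GRCh38.p14), over 250 bases before to 50 after the start, and were searched on both strands. None held GAANNTTC, a short heat-shock element, which 6.77% of all 35116 promoters hold. TGACNNNGC was found in 13 of 39 (33.3%, against 13.3% of all promoters), CCGGAAG, an ETS core, in 11 (28.2%, against 10.3%), CCAAT in 17 (43.6%, against 34.6%) and the interferon element core in 6 (15.4%, against 3.57%). The longer TGACTCAGC, the form known for NFE2L1 sites, was found in none, beside 0.561% of all promoters. Each member gene was counted once, while the 35116 are every promoter listed, not reduced by gene or limited to the genes tested. The shares thus come from unlike sets. These counts describe letters in these windows, and enrichment was not tested.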

How the data were processed

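The authors deposited a table of linear probe intensity for the 8 arrays, exported with BeadStudio per the submitters' processing notes (version not given in the sources used here). A second deposited table holds the authors' log2 values of the same arrays. They lie within 0.0246 of quantile-normalized log2 signals, and the labels do not describe how they were made. The signal table has no detection p-values, and no column was left unused.

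Intensities were corrected with normexp (offset 50), quantile-normalized and put on the log2 scale in limma 3.58.1 under R 4.3.3. Probes with a mean above the 40th percentile (6.16) passed the filter (28338), and the brightest of the 19547 with 1 symbol stood for its gene, which gave 14190 genes. Symbols came from the platform annotation, in which 30113 probes had 1 symbol, 8 several and 17110 none. A signal counted as above background past the 99th percentile of a normal distribution fitted around the mode of that array's log2 signals.

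One limma model used all 8 arrays as 4 groups (4 residual and 9.37 prior degrees of freedom), and an additive model gave the change over both lines. Tests were two-sided, with Benjamini-Hochberg adjustment over all genes. The step was tested on simulated data for the A2780 comparison. It called 14% of changes of 0.5 on the log2 scale and 81% of changes of 1, so most changes of 0.5 were missed. With 2 arrays a group, the number of arrays limits the precision.

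The members, the role lists and the lists of partners and markers were chosen with earlier results of these data known. Genes were named by rule: every called member, the highest and lowest member of each role class in each line, the catalytic subunits, PSMD4 and PSME3, and up to 8 called partners or class I genes per comparison, with fixed label checks. Alternatives covered the authors' values, background, scaling, filter, prior, replicate block, arrays fitted, probes and leaving out each array; a filter on background and a crossed block were chosen after seeing the data. Equal replicate numbers were not treated as pairs: deviations of equally numbered arrays correlated at 0.072 in A2780 and -0.25 in SKOV3, and nothing in the labels ties them.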

Additional observations from a re-analysis of the deposited data

How the results depend on the processing

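Groups of 2 arrays limit each result, and no alternative can tell spread between cultures. The shares of all genes called in the alternatives are not given here, so their counts of proteasome genes are not set against other genes. The count of proteasome genes called in A2780 (1) became 11 under median scaling and 12 without normalization, and 0 to 6 when 1 array was left out. The SKOV3 count (1) became 0 under median scaling, without normalization, with the filter at the 60th percentile, with the replicate block, with every kept probe tested and with the filter on background, and 0 to 1 when 1 array was left out. A block with the SKOV3 numbers crossed kept 1. The block left the other counts within a factor of 1.5. The count over both lines (1) became 2 with the authors' values and with the floor. Between the lines, the 37 °C count (12) ran from 5 to 12 when 1 array was left out, and the 46 °C count (9) became 4 without normalization and ran from 3 to 11 when 1 array was left out. The median change minus that of all genes in A2780 (0.04) became 0.0153 under median scaling and without normalization, and 0.0114 to 0.0857 with 1 array left out. In SKOV3 (0.00274) it became 0.104 under both, and -0.0193 to 0.0546 with 1 array left out.

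Signs turned for SKOV3 minus A2780 at 37 °C under the scalings, given here only for proteasome genes called with quantile normalization. Without normalization PSMA4 had -0.0345, PSMD6 -0.10, PSMA3 -0.15, PSMC2 -0.0699, PSMD2 -0.15 and PSMD11 -0.30. Under median scaling PSMA3 had -0.0238, PSMD2 -0.0261 and PSMD11 -0.18. The scalings leave the median of all genes below 0 there, at -0.23 and -0.35. A slide block was not run, because the headers name no slide.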

Other observations

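Of the 30 tested partner genes, 12 were called between the lines at 37 °C, 6 higher and 6 lower in SKOV3. That is 40%, beside 29.3% of all genes. At 46 °C, 6 were called, 3 higher and 3 lower (20%, beside 24% of all genes). NGLY1, the glycanase that processes NFE2L1, was higher in SKOV3 than in A2780 cells by 1.11 at 37 °C (adjusted p = 1.92e-05 by limma) and by 0.87 at 46 °C. UBE3C, a ubiquitin ligase of the cap, was higher in SKOV3 by 0.84 at both temperatures, and UBLCP1, a proteasome phosphatase, by 0.89 at 37 °C. IPO9, the importin that carries proteasomes into the nucleus, was lower in SKOV3 by a log2 difference of -0.89 at 37 °C and -0.56 at 46 °C. MAFG, a small MAF protein, was also lower in SKOV3 at 37 °C (-0.70, adjusted p = 0.000874 by limma). The NGLY1 call at 37 °C was lost without normalization between arrays, and those of UBE3C and UBLCP1 at 37 °C also under median scaling. The IPO9 call at 46 °C was lost under both scalings and without the second A2780 or the first SKOV3 hyperthermia array (adjusted p up to 0.24).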
